A study of Mus musculus with 26 samples.

Results

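The genes of the purine-rich element binding proteins (Pura, Purb and Purg) and of the somatic Y-box proteins (Ybx1 and Ybx3) were followed in RNA-seq counts and in ChIRP-seq peak lists of MaTAR25, a nuclear long non-coding RNA of mouse mammary tumor cells. These 5 genes, of 45318 in the count files, were taken because PURB is the protein partner that the study assigned to MaTAR25. The peaks described are the 15, of 273053 in 4 lists, whose nearest annotated start site belongs to one of these genes.

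The RNA-seq compared 4T1 cells, a BALB/c mammary carcinoma line, that carried a homozygous CRISPR/Cas9 deletion over the MaTAR25 start site (genotype MaTAR25-/-, KO1 and KO2) with 4T1 control cells that had received a guide against Renilla luciferase (labelled wild type). Control, KO1 and KO2 had 2, 3 and 4 libraries of polyadenylated RNA, and no drug or time course was applied. The cells were propagated from single sorted cells, so that differences between KO1 and KO2, or between a KO clone and control cells, include differences between clones. ChIRP-seq, in which biotin-labelled antisense oligos pull down an RNA with the chromatin attached to it, used wild-type 4T1 cells with all 14 MaTAR25 oligos (4T1 total), the odd oligos or the even oligos, and primary NDL cells of strain FVB with all 14 oligos (NDL total). The NDL cells are labelled with the genotype MMTV-PyMT, although NDL is the name of a Neu model, and they are called NDL here. The labels do not say whether libraries of a group came from separate cultures, so the p-values measure the spread between these libraries, which may be technical.

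Pur proteins bind single-stranded, purine-rich DNA and RNA, typically runs of GGN repeats, through PUR repeats that fold in pairs. PURA and PURB form homo- and heterodimers, sit in neuronal RNA transport granules, and repress smooth muscle genes such as Acta2 from the purine-rich strand of the promoter. PURG is the least studied member. Y-box proteins carry a cold-shock domain, were named for binding to the Y-box, an inverted CCAAT element of promoters, and coat much of the cytoplasmic messenger RNA. YBX1 acts with PURA and PURB at the Acta2 promoter, binds 5-methylcytosine in RNA, and is abundant in many tumors. YBX3 is its closest somatic relative and YBX2 its germ cell relative.

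The Ybx1 promoter is shown first, because it is the only start site of the 5 genes under a ChIRP-seq peak. Its 300 bases in RefSeq (GRCm38.p6, chr4:119294464-119294763, minus strand, from 250 bases before to 50 bases after the start) hold 3 CCAAT and 1 GGTGG, which are in capitals.

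Ybx1 promoter: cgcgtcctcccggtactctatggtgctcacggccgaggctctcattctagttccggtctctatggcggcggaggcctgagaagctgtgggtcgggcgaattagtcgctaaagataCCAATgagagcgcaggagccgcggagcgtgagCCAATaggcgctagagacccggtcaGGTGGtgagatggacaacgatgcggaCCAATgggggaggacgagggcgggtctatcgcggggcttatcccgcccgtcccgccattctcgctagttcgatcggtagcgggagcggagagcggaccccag

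The CCAAT copies begin at -135, -103 and -52 from the RefSeq start, all on the strand of the gene. Of 32851 RefSeq promoter windows of the same length, 37.4% held at least 1 CCAAT on either strand and 3.37% held at least 3. GGTGG, a purine-rich unit with a single T, was on either strand in 60.4% of the windows. The Ybx3 window (chr6:131388401-131388700) held 2 GGTGG and 0 CCAAT, and the Purb window (chr11:6476027-6476326) held 0 of either. These letters were only searched for as written, and a match is a description and not a site of binding.

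Gene counts per library were between 25367211 and 61110585. The targeted gene, MaTAR25 (1200007C13Rik), was counted 35 and 30 times in control and from 0 to 11 times in the 7 KO libraries, and fell by 2.63 on the log2 scale (SE 0.82, edgeR adjusted p = 0.0561). Tns1, the gene tied to MaTAR25 and PURB by the study, had 4.49 ± 3.28 CPM (SD, n = 2) in control and 0.836 ± 0.941 CPM (n = 7) in KO cells, with a log2 fold change of -2.41 and an edgeR adjusted p of 0.110, above the threshold of 0.1. The study, which used DESeq2 at that threshold, counted Tns1 among its changed genes. It also reported less Tns1 RNA and protein in KO cells by qRT-PCR and immunoblot. CPM are counts divided by the TMM library size, on the usual scale. The cells were epithelial by their markers: Krt8, Krt18, Krt14, Epcam and Cdh1 summed to between 2814 and 2973 CPM in control and between 1411 and 3845 CPM in KO libraries. Single markers differed from this sum. Cdh1 was between 759 and 940 CPM in control and, lower, between 354 and 670 CPM in KO libraries. Epcam was between 460 and 485 CPM in control and 104 and 488 CPM in KO libraries. Krt8 was between 412 and 452 CPM in control and 411 and 1411 CPM in KO libraries. The KO ranges of Krt18 and Krt14 spanned those of control. Of the 4 fibroblast markers, Dcn and Lum were at 0 in every library and the sum, nearly all Pdgfra, was between 17.7 and 21.8 CPM in control and between 11.7 and 46.9 CPM in KO libraries. The 4 immune markers summed to between 3.20 and 4.21 CPM in control and between 1.85 and 28.4 CPM in KO libraries, nearly all Cd68, with Lyz2 at no more than 2 counts. The endothelial markers Pecam1 and Cdh5 summed to no more than 0.214 CPM in control and no more than 1.52 CPM in KO libraries. In bulk RNA, fewer cells of a kind and less RNA per cell cannot be told apart.

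All 5 genes were expressed in control cells, and the Y-box genes stood well above the Pur genes. Per kilobase of merged exon length, the only scale on which genes are compared here, Ybx1 was at 161 ± 1.61 CPM per kb (SD, n = 2), Ybx3 at 89.9 ± 6.67, Purb at 29.8 ± 2.90, Pura at 21.8 ± 0.858 and Purg at 6.42 ± 0.795. No range overlapped that of the next gene in this order in the 2 control libraries. In the 7 KO libraries the order was the same, but the ranges of Purb and Pura overlapped, with Purb above Pura in 6 of 7 libraries. The exon lengths are those of GENCODE vM21, whereas the reads were counted on GENCODE vM5. Differences between these gene models would move the levels per kb, and the SD does not cover them.

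**Figure D1:**
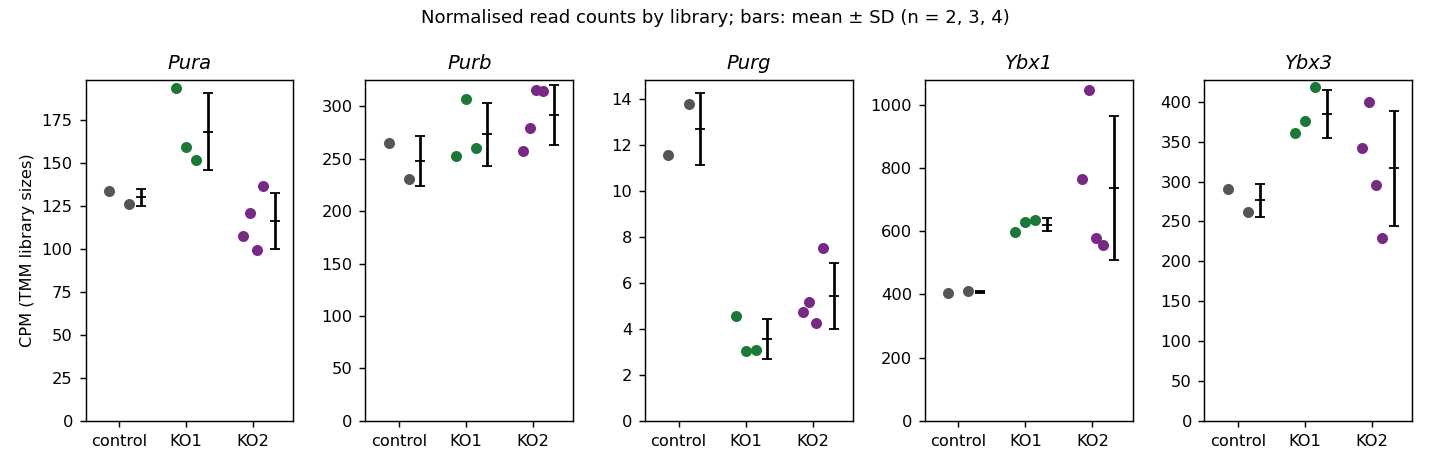
Normalised read counts (CPM with TMM library sizes, linear axis from 0) of the 5 genes in each library of control, KO1 and KO2 cells. Points are libraries, and the black bars beside them are the mean ± SD (n = 2, 3 and 4). All 7 KO libraries lie below both control libraries for Purg and above both for Ybx1. Of the genes tested, 17.6% had all KO libraries below and 16.9% had all above.

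Purg fell and Ybx1 rose in MaTAR25 KO cells, and Pura, Purb and Ybx3 did not pass the test. These are 2 of 5 genes called at an adjusted p under 0.1 (edgeR quasi-likelihood test), where 22.6% of the 15023 genes tested were called, 11.9% higher and 10.7% lower in KO cells. The median log2 fold change was 0.20 over the 5 genes and 0.06 over all genes tested.

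Purg had 11.6 and 13.8 CPM in the control libraries. It had 4.57, 3.02 and 3.08 CPM in KO1 and 4.74, 5.18, 4.25 and 7.50 CPM in KO2. The groups did not overlap: the highest KO library, KO2 replicate 4, was still below the lower control library. In 17.6% of the genes tested, all KO libraries were below both control libraries. The counts behind these values were 527 and 452 in control and between 91 and 367 in KO libraries. Purg was 0.365 times its control level in KO cells (log2 fold change -1.45, SE 0.33, 95% interval from -2.19 to -0.72, edgeR adjusted p = 0.0173). The two-sided exact permutation test over the 36 splits of 9 libraries gave p = 0.0278, the smallest that this design allows. Purg passed the test in both clones, at -1.83 (SE 0.33, adjusted p = 0.00585) in KO1 and -1.22 (SE 0.31, adjusted p = 0.0210) in KO2, and these comparisons share the 2 control libraries. The difference between the clones was 0.60 (SE 0.29, adjusted p = 0.196).

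Without control replicate 1 or control replicate 2 the fold change of Purg stayed between -1.56 and -1.32, with adjusted p = 0.138 and 0.193, and the call was lost, as it was in KO2 (adjusted p = 0.113 and 0.180) but not in KO1; over 16 alternative settings the adjusted p ran from 0.000719 to 0.193. With either control library left out, 462 or 574 genes were called in all, against 3392 with both.

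Purg lies at chr8:33386325-33417467 on the plus strand (GRCm38, GENCODE vM21 model), with Wrn, the RecQ helicase gene mutated in Werner syndrome, 798 bases before its start on the opposite strand. Wrn had 61.7 ± 5.46 CPM (SD, n = 2) in control and 44.8 ± 7.99 CPM (n = 7) in KO cells. Its log2 fold change of -0.46 (SE 0.20) did not pass the test (adjusted p = 0.150). The 2 genes face away from each other from a shared upstream stretch, and only Purg passed; whether their changes differ was not tested.

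Ybx1 had 405 and 411 CPM in the control libraries. KO1 had 597, 631 and 636 CPM, and KO2 had 766, 1047, 577 and 557 CPM. Every KO library exceeded both control libraries, and KO2 replicate 2 was far above the others. Non-overlap of this kind, in either direction, was seen in 34.4% of the genes tested. Ybx1 rose 1.68-fold in KO cells (log2 fold change 0.75, SE 0.24, 95% interval from 0.21 to 1.29, adjusted p = 0.0632). The exact permutation p was 0.0556. In the clones, the log2 fold change was 0.85 in KO2 (SE 0.24, adjusted p = 0.0346) and 0.61 in KO1 (SE 0.25, adjusted p = 0.114), so that only KO2 passed. The difference between the clones, 0.25 (SE 0.21, adjusted p = 0.468), did not pass.

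KO2 replicate 2, which has the fewest gene counts and lists each gene 3 times with the same count, was the highest Ybx1 library. Without it the log2 fold change of Ybx1 in KO cells was 0.61 with adjusted p = 0.0212, and that of KO1 was 0.60 with adjusted p = 0.0240; over 16 alternatives the adjusted p of Ybx1 ran from 0.0212 to 0.318 in KO cells and from 0.00429 to 0.333 in KO1. Without control replicate 1 or 2 the fold change stayed at 0.75 and 0.77, with adjusted p = 0.318 and 0.310, and in KO2 at 0.85 and 0.86, with adjusted p = 0.190 and 0.186. Ybx1 also passed in KO1 without KO2 replicate 3 or 4 (adjusted p = 0.0851 and 0.0860), and its exact permutation p was 0.0357 without KO2 replicate 1, 2 or 4.

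Several annotated transcripts are nearly the same as Ybx1 over long stretches. Some Ybx1 reads could therefore have been counted for another gene or, where they fit several places, for none. How many were counted for none is not known. Ybx1-ps2, CT009755.1 and Gm49119 were not among the counted genes. The closest with counts were Gm11560 (96.1% identity over 932 bases, between 7 and 19 counts) and E130201H02Rik (93.4% over 545 bases, between 1 and 8 counts), beside 13481 to 37449 counts of Ybx1.

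Ppih, a cyclophilin of the spliceosome and the next protein-coding gene before the Ybx1 start, 5406 bases away on the same strand, also rose. It had 7.66 ± 0.868 CPM in control (SD, n = 2) and 17.2 ± 3.77 CPM in KO cells (n = 7), a log2 fold change of 1.16 (SE 0.28, adjusted p = 0.0210). Cldn19, a claudin gene on the other side, had no counts in any library.

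Ybx3 had 291 and 262 CPM in control, 360, 376 and 418 CPM in KO1, and 342, 399, 295 and 229 CPM in KO2. All KO1 libraries were above both controls, whereas KO2 replicate 4 was below both. The log2 fold change was 0.32 in KO cells (SE 0.21, adjusted p = 0.332, exact permutation p = 0.222), 0.48 in KO1 (SE 0.22, adjusted p = 0.143) and 0.19 in KO2 (SE 0.21, adjusted p = 0.520). Without KO2 replicate 4 the exact permutation p was 0.0357, the smallest that 8 libraries allow. Without KO2 replicate 2 or 4, Ybx3 passed in KO1 (adjusted p = 0.0799 and 0.0671, in a range from 0.0171 to 0.440 over 16 alternatives). Styk1, the kinase-like gene that follows Ybx3, had a log2 fold change of -0.38 (SE 0.43, adjusted p = 0.591).

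**Figure D2:**
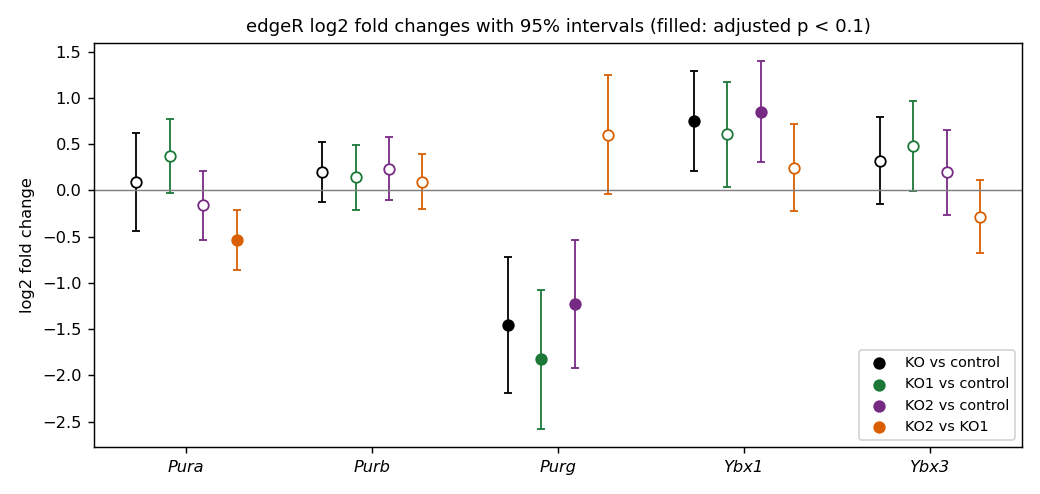
Log2 fold changes of the 5 genes from edgeR with 95% intervals, for all KO against control, KO1 against control, KO2 against control and KO2 against KO1. Filled points had an adjusted p under 0.1. Purg is filled in all 3 comparisons with control, Ybx1 in KO and KO2, and Pura in KO2 against KO1.

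Purb, the gene of the MaTAR25 partner, had 265 and 231 CPM in control, 252, 307 and 260 CPM in KO1, and 257, 279, 316 and 315 CPM in KO2. The groups overlapped, with 4 of 7 KO libraries above both controls and 0 below both. Its log2 fold change in KO cells was 0.20 (SE 0.15, adjusted p = 0.391, exact permutation p = 0.194), and the 95% interval from -0.13 to 0.52 is the narrowest of the 5 genes. In KO1 it was 0.14 (SE 0.16, adjusted p = 0.556), in KO2 0.24 (SE 0.15, adjusted p = 0.288), and between the clones 0.09 (SE 0.13, adjusted p = 0.673). No alternative brought Purb past the threshold. Gm11973, annotated antisense within the Purb locus (chr11:6467599-6475917, minus strand), had no more than 5 counts in any library, beside at least 6623 of Purb. H2afv, a histone variant gene next to Purb, had a log2 fold change of 0.24 (SE 0.32, adjusted p = 0.648).

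Pura differed between the clones. It had 134 and 127 CPM in control, 194, 159 and 152 CPM in KO1, and 108, 121, 99.5 and 137 CPM in KO2. KO1 was above both controls in 3 of 3 libraries and above every KO2 library, whereas KO2 replicate 4 exceeded both controls and the other 3 KO2 libraries were below them. Pura was lower in KO2 than in KO1 by a log2 fold change of -0.54 (SE 0.15, 95% interval from -0.86 to -0.21, adjusted p = 0.0459), where 19.6% of genes were called between the clones, 10.2% higher and 9.43% lower in KO2. Against control, neither KO1 (0.37, SE 0.18, adjusted p = 0.160) nor KO2 (-0.16, SE 0.17, adjusted p = 0.509) passed, and for all KO libraries the change was 0.09 (SE 0.24, adjusted p = 0.829, exact permutation p = 0.889).

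The call between the clones was lost without KO1 replicate 1 (-0.42, adjusted p = 0.164) or KO1 replicate 2 (-0.58, adjusted p = 0.124), within a range of adjusted p from 0.0133 to 0.164 over 16 alternatives. Nrg2, a neuregulin gene 83717 bases before Pura, had 2.18 ± 1.14 CPM in control and 6.33 ± 2.67 CPM in KO cells, with adjusted p = 0.103 in KO and 0.0730 in KO2.

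Counted per clone, 1 of the 5 genes passed against control in KO1, where 31.6% of all genes did, and 2 of 5 in KO2, where 31.4% did. With KO1 and control fitted alone, 54.1% of the 14342 genes then tested were called, and 4 of the 5 genes passed in KO1: Pura at 0.38, Ybx1 at 0.61 and Ybx3 at 0.48, with adjusted p = 0.0607, 0.00429 and 0.0171, beside Purg.

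The make-up of the Pur family lay apart from control in both clones, and that of the Y-box family in KO2 only. Purg gave 9.74 and 12.5% of the summed CPM per kb of the 3 Pur genes in the control libraries, between 2.34 and 3.55% in KO1 and between 3.79 and 5.88% in KO2. Purb gave 49.6 and 52.9% in control, between 46.5 and 56.6% in KO1 and between 58.6 and 66.8% in KO2, so that KO2 lay above control and KO1 overlapped it. Pura gave between 37.3 and 38.0% in control, between 41.02 and 49.95% in KO1 and between 29.4 and 36.01% in KO2. Among the Y-box genes, Ybx1 gave 62.9 and 65.6% in control, between 64.9 and 67.1% in KO1 and between 70.4 and 76.1% in KO2. Here too KO2 lay above control and KO1 overlapped it. These shares restate the counts above on the scale per length and were not tested.

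**Figure D3:**
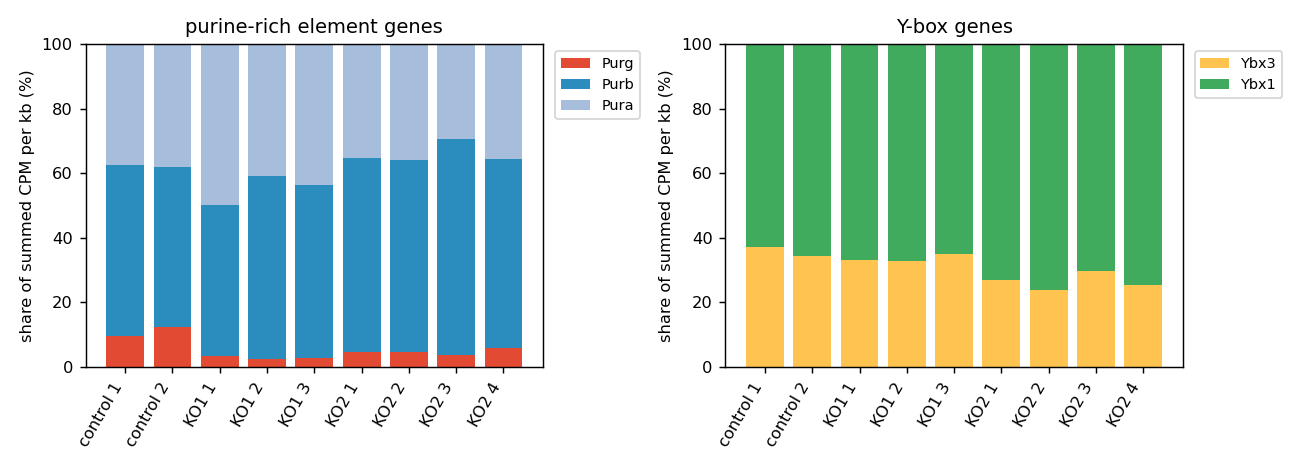
Share of each gene in the summed CPM per kb of its family, in percent, for the 3 purine-rich element genes (left) and the 2 Y-box genes (right) in each of the 9 libraries. Purg is at most 5.88% in any KO library and at least 9.74% in control, and Ybx1 is at least 70.4% in KO2.

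The genes whose log2(CPM + 1) followed a member most closely over the 9 libraries, among 12029 others that averaged 1 CPM or more, were Cdyl (r = 0.98), Tmem170 (0.98) and Isca2 (0.97) for Purg, and Gm340 (0.98), Psmb2 (0.98) and Cycs (0.97) for Ybx1. Psmb2 is a subunit of the proteasome and Cycs is cytochrome c. For Pura they were Gdnf (0.97), Mosmo (0.96) and Tapbp (0.96), for Ybx3 Rbm14 (0.97), Aunip (0.97) and Naa50 (0.95), and for Purb, whose levels varied least, Cdc42ep2 (0.89), Gsto1 (0.88) and Nat2 (0.88). Among the members, Ybx1 and Ybx3 had an r of 0.64, Purg and Ybx3 of -0.72, Purg and Ybx1 of -0.64, and Pura and Purb of -0.19. All points share library depth and the 3 groups, and these correlations are descriptions over 9 libraries.

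In the ChIRP-seq lists, 15 peaks lay nearest to a member. Ybx1 and Pura had 6 each over the 4 lists, Ybx3 had 2, Purg had 1, and Purb had 0 in every list. Peaks were called by the study over pooled replicates against the Ppib (cyclophilin B) pulldown, so that no peak has a replicate error, and scores were ranked only within a list. The lists hold 76806 (4T1 total), 61311 (4T1 odd), 64607 (4T1 even) and 70329 (NDL total) peaks.

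The Ybx1 start site was under a peak in all 3 lists of 4T1 cells and in none of NDL cells. It was at chr4:119294377-119294876 in the total list with a score of 103.6, at chr4:119294393-119295019 in the odd list with a score of 111.5 and at chr4:119294379-119294878 in the even list with a score of 63.0. These scores are at the percentiles 79.9, 78.4 and 70.1 of their lists. Peaks annotated to promoters were few in each list, 3.81% of the total, 3.54% of the odd and 3.66% of the even list, and among those promoter peaks 24.1, 25.8 and 33.1% scored at least as high. Each of the 3 peaks covers the promoter window printed above, with its 3 CCAAT. Of the promoter peaks, 7.04, 7.51 and 7.57% held at least 3 CCAAT in the 3 lists, and of all peaks 58.7, 58.5 and 60.03% held at least 1. Each Ybx1 promoter peak held 2 GGTGG, and 77.5, 69.3 and 78.7% of all peaks held at least 1.

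A further Ybx1 peak lay past the end of the gene in intergenic sequence, and it was found in the odd, total and NDL lists and not in the even list. It was at chr4:119269509-119270008 (odd, score 118.3), chr4:119269538-119270037 (4T1 total, score 45.1) and chr4:119269503-119270129 (NDL total, score 43.4), and in the odd list lay 7972 bases past the end of Ybx1 in the GENCODE vM21 model. Within it, 12 bases match MaTAR25 oligo 3, one of the odd oligos. They are in capitals in the stretch (chr4:119269673-119269734, minus strand, GRCm38) and in the oligo, where they are bases 2 to 13.

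Ybx1 downstream peak: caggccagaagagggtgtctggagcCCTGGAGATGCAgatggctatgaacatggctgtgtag
MaTAR25 oligo 3: tCCTGGAGATGCAttttttc

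Stretches of 12 or more bases shared with any MaTAR25 oligo were also in 24.2% of all 4T1 total peaks, 23.8% of odd, 19.8% of even and 23.6% of NDL peaks. The Ybx1 promoter peaks had no such match. The longest in the total and even peaks was 9 bases to oligo 4, an even oligo, at the GGTGG of the printed promoter, here shown with its surroundings (chr4:119294560-119294618, minus strand) and with the matching bases in capitals.

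Ybx1 promoter peak: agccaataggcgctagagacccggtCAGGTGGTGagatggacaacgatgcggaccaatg
MaTAR25 oligo 4: CAGGTGGTGgagatggaatg

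Matches of at least 9 bases were in 86.2 to 88.6% of the peaks of each list, so that this one does not set the Ybx1 promoter apart. In the odd list, where the peak is longer, the longest match was 10 bases to oligo 14, which is not in the odd pool.

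**Figure D4:**
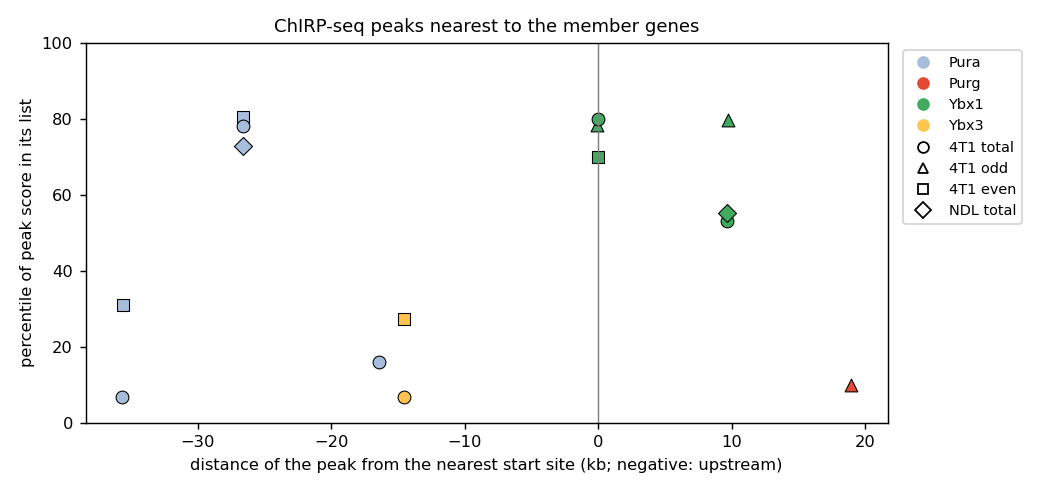
ChIRP-seq peaks nearest to Pura, Purg, Ybx1 and Ybx3: distance of the peak from the start site of the nearest transcript (kb, negative upstream) against the percentile of the peak's score in its own list. Color marks the gene and shape the list. The Ybx1 peaks at the start site have percentiles from 70.1 to 79.9 and come from the 3 lists of 4T1 cells.

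The peaks nearest to the Pura start site were all in intergenic sequence before it. One, between 26290 and 26323 bases before the gene, was shared by 4T1 total (score 95.8), 4T1 even (89.4) and NDL total (74.8) and was missing from the odd list. The others, in the total and even lists, had scores between 18.1 and 26.2. Past the other end of Pura, 2 peaks assigned to a different transcript had higher scores than the peaks nearest to a member in the same list: chr18:36294403-36295027 in the even list (score 160.4, place 5123 of 64607), 1867 bases past the gene, and chr18:36294421-36295954 in the NDL list (score 261.3, place 3171 of 70329), 1885 bases past it. Before the Ybx1 start, peaks assigned to another gene, Gm37817, were in the 4T1 total, 4T1 even and NDL lists. Their scores were 39.2, 24.7 and 29.8. Ybx3 had 1 peak between 14274 and 14335 bases before its start in the total and even lists, with scores of 18.1 and 24.5. Purg had 1 peak, in the odd list only, in the intron (chr8:33405024-33405523, score 18.1, place 55254 of 61311). It held 0 GGTGG and 1 CCAAT, and its longest oligo match was 11 bases to oligo 9, an odd oligo. None of the Pura, Purg and Ybx3 peaks had a match of 12 bases.

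Having a peak nearest to a gene was common: 28463 genes had at least 1 in the 4T1 total list and 16383 had at least as many as the 2 of Ybx1. The highest-scoring peak of the Tns1 locus in the 4T1 total list had 17 GGTGG in 906 bases, and 0.944% of the peaks of that list had at least as many. In the odd, even and NDL lists it had 16 in 750 bases, and 0.220, 1.52 and 1.58% of peaks had at least as many. GGTGG is also part of MaTAR25 oligo 4, an even oligo, and whether this bears on these counts was not tested. No peak nearest to a member had more than 5, and all of these member peaks were shorter than those of Tns1.

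The genes that work with these proteins were taken from 8 lists with 91 genes, of which 79 were tested and 30 passed between KO and control, beside 22.6% of all genes tested. The cold-shock domain genes (1 of 4), the other Acta2 promoter regulators (2 of 8) and the other single-strand binders (4 of 13) were near that share. Of 14 messenger ribonucleoprotein partners of YBX1, 4 rose and 3 fell. Dhx9, an RNA helicase, went from 198 CPM in control to 456 CPM in KO cells (means; log2 fold change 1.20, SE 0.17, adjusted p = 0.00260), and Nsun2, a methyltransferase that writes 5-methylcytosine, rose by 0.86 on the log2 scale. Igf2bp2, a messenger RNA stabilising protein, fell by 0.68 and Lsm14a, a processing body protein, by 0.58. By clone, Lsm14a passed in KO2 (-0.78, edgeR adjusted p = 0.00494) and not in KO1 (-0.34, edgeR adjusted p = 0.124). The difference between the clones also passed (-0.44, edgeR adjusted p = 0.0481).

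Of 14 proteins of PURA/PURB RNA transport granules, 3 rose and 2 fell, where 11.9% of all genes tested rose and 10.7% fell. Alyref, an export adaptor, rose by 1.05 and Ddx3x, a helicase, by 0.94, and Stau2, a double-strand RNA binder of neuronal granules, fell by 0.61 and Sfpq, a splicing factor, by 0.47. By clone, Stau2 passed in KO2 (-0.74, edgeR adjusted p = 0.0332) and not in KO1 (-0.45, edgeR adjusted p = 0.171). The difference between the clones did not pass (-0.28, edgeR adjusted p = 0.351). The kinesin genes of the list, Kif5a, Kif5b and Kif5c, did not pass, at 0.02, 0.07 and -0.64. Of 13 other binders of single-stranded nucleic acid, 3 rose and 1 fell. Khsrp rose by 0.77, Ssbp4 by 0.58, and Ssbp3 fell by 0.67.

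Of 18 genes linked to YBX1 in tumor cells, 9 rose and 1 fell, with a median log2 fold change of 0.73, beside 11.9% higher, 10.7% lower and a median of 0.06 over all genes tested. The list was chosen with earlier results of these data known, so that its share of risers is a description and was not tested. The risers included Cdc6, which licenses replication origins, from 11.4 to 78.4 CPM (log2 fold change 2.78, SE 0.23), and the drug efflux gene Abcb1a, from 0.236 to 2.83 CPM (3.57, SE 1.14). The other 7 were Abcb1b, Ccna2, Ccnb1, Ccnd1, Pcna, Pola1 and Top2a, most of them genes of the cell cycle. Col1a1, a collagen gene, fell from 3.32 to 0.408 CPM. The receptor genes Egfr and Met did not pass, at 0.00 and 0.43.

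Smooth muscle and contractile genes, the kind of gene that PURA, PURB and YBX1 are known to repress, were mostly not expressed. Only 5 of 12 had enough counts to be tested. Between KO and control, 0 of these 5 passed with edgeR or with DESeq2, 1 having an unadjusted p under 0.05. In KO1 against control Cald1 passed (-0.67, edgeR adjusted p = 0.0819), where 31.6% of all genes did, and in KO2 0 of 5 passed. Between the clones Smtn passed (0.53, edgeR adjusted p = 0.0730), where 19.6% of all genes did. Acta2 had no more than 12 counts in any library, and Myh6 and Myl9 had 0. Cald1, the highest at a mean of 497 CPM, had a log2 fold change of -0.53 between all KO libraries and control (adjusted p = 0.141). Of 8 other regulators of the Acta2 promoter that were tested, 0 rose and 2 fell, Klf5 by 1.07 and Sp3 by 0.60. Srf and Smad2 did not pass, at 0.14 and 0.29.

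Of 4 other cold-shock domain genes tested, 1 fell: Ybx2, the germ cell Y-box gene, from 1.20 to 0.332 CPM (log2 fold change -1.88, SE 0.60, adjusted p = 0.0623). Carhsp1, which was well expressed, did not pass at -0.17, and Lin28a had no counts. Of 3 kinases that phosphorylate YBX1, Akt1 rose by 1.10 and Rps6ka1 and Rps6ka3 did not pass, where 22.6% of all genes tested passed.

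**Figure D5:**
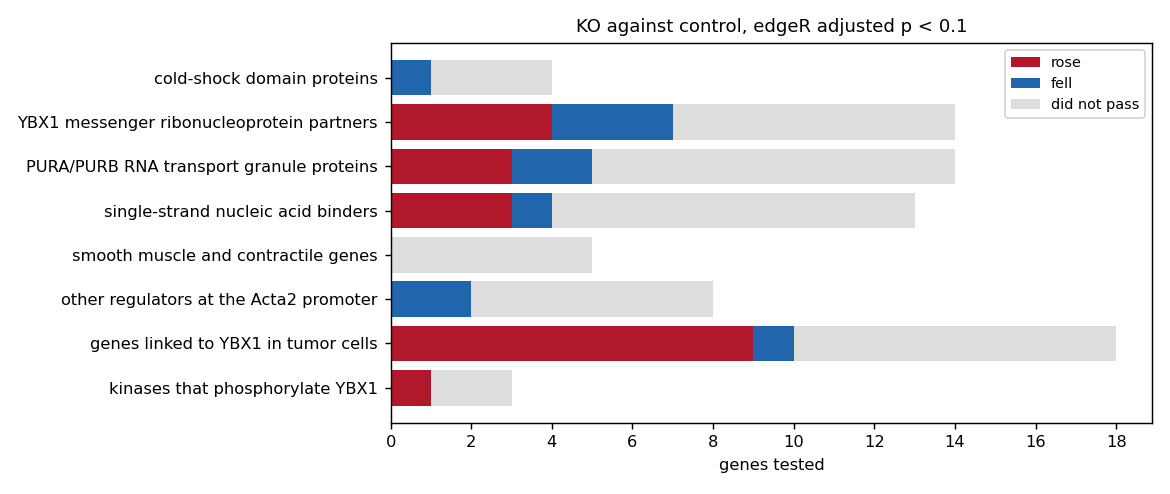
Genes of 8 lists around the Pur and Y-box proteins that rose, fell or did not pass (edgeR adjusted p under 0.1) between KO and control, as numbers of genes tested. The genes linked to YBX1 in tumor cells have the most risers, 9 of 18, where 11.9% of all genes tested rose, and the smooth muscle list has none called of 5. The lists were chosen with earlier results of these data known.

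These list counts rest on both control libraries. Without control replicate 1 or control replicate 2, the genes linked to YBX1 in tumor cells had 2 and 3 called, the messenger ribonucleoprotein partners 2 and 1, the transport granule proteins 1 and 1, and each other list 0. Without KO1 replicate 3 the cold-shock domain list had 0 called, and without KO2 replicate 2 or KO2 replicate 3 the smooth muscle list had 2 or 1.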

How the data were processed

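RNA-seq of 9 4T1 libraries and peak lists of ChIRP-seq were used. The deposited RNA-seq values are raw counts per gene, which the authors made from single-end reads with STAR (GRCm38) and HTSeq (GENCODE vM5); whether HTSeq used strand is not stated in the sources at hand. The peak lists, mapped with Bowtie2 and annotated with GENCODE vM16, carry deposited HOMER scores of pooled replicates over the Ppib pulldown, and nothing read here gives their scaling. Counts on no gene, 33.9 to 37.0% of a library, were left out.

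The tests were run with edgeR 4.0.16 in R 4.3.3 (TMM, filterByExpr, quasi-likelihood test, Benjamini-Hochberg adjustment, threshold 0.1). KO1, KO2 and their difference came from a fit of 3 groups. The study used DESeq2, an alternative here (version 1.42.0). On simulated data with 200 changed genes among 14853 tested, the comparison of KO with control called 199 of them, and 29 of its 228 calls were false. Those 200 genes had a median absolute log2 fold change of 2.01 and averaged more than 1 CPM. The simulation gave every gene the same spread between libraries and no difference between the clones. That spread was close to the one of the fit of 3 groups, a coefficient of variation of 32.5%. With KO as 1 group the data had 42.0%, and recovery at that spread was not tested. Recovery of smaller changes, such as the -1.45 of Purg and the 0.75 of Ybx1 between KO and control, was not tested. Single genes were compared by an exact permutation test of log2(CPM + 1). RefSeq promoters of 3 of the 5 genes were matched by symbol, transcripts alike over at least 200 bases at 90% identity were found with blastn 2.17.0, and protein sequences were not used here. Oligo sequences come from the study's supplementary tables.

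The members and gene lists were chosen with earlier results of these data known. The genes named are the members, MaTAR25 and Tns1, neighbours of members, up to 2 called risers and 2 called fallers of each list averaging 1 CPM or more, and the 3 genes most correlated with each member. Other list genes were named after their values were seen. Alternatives covered normalization, filters, the threshold, the groups fitted, a replicate block and each library left out. Intervals cover the spread between libraries.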

Additional observations from a re-analysis of the deposited data

Results flagged for a closer look

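Among the 7 KO libraries, Ybx1 in KO2 replicate 2, at 1047 CPM, stood apart from the others, with a gap to the next library of 0.572 of the whole range (Dixon's criterion for 7 samples is 0.568). Each of the 5 genes was examined in the KO2 libraries and in all KO libraries, 10 groups in all, and chance alone marks about 1 group in 20. Among the 4 KO2 libraries alone it did not pass the criterion. This library has the fewest gene counts, 25367211, and its part in the result was not tested beyond the values without it given above.

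Pura was lower in KO2 than in KO1, with a log2 fold change of -0.54 (edgeR adjusted p = 0.0459), by a test of the difference between the clones. The other 4 genes did not pass this test, with adjusted p from 0.196 for Purg to 0.673 for Purb.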

How the results depend on the processing

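Of the 5 genes, 2 passed between KO and control, 1 at a threshold of 0.05, where Ybx1 dropped out, and between 0 and 2 with 1 library left out. In KO1 the count of 1 became 2 with DESeq2, 2 with the replicate block and 4 with KO1 and control fitted alone, while all genes called went from 4750 to 5064, 3988 and 7752, and was between 1 and 3 with a library left out. In KO2 it was between 0 and 2, and between the clones between 0 and 1, with a library left out. The cause of these differences was not tested, other than that leaving out a control library leaves 1 sample, assumed to vary like the other groups. Same-numbered libraries had correlations of their deviations from the group means between -0.149 and 0.0429, so the numbers were not taken to pair the samples; with the replicate block, Purg and Ybx1 in KO cells had adjusted p = 0.0569 and 0.0845, and all genes called went from 3392 to 1952. No called direction of the 5 genes turned under any of the 16 alternatives. Of the 15 peaks, 3 had a score of at least 100. Of these 15, 3 had an oligo match of at least 12 bases, 10 one of at least 10 bases, 0 one of at least 14 bases and 15 one of at least 9 bases, the last chosen after seeing the data. The analysis of protein sequences was not run. With 2 control libraries, the exact permutation test cannot go below 0.0278, or below 0.125 without one of them.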
